A study of Mus musculus with 15 samples.

Results

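The RGS genes (regulators of G protein signalling) Rgs2, Rgs3, Rgs4, Rgs5, Rgs10, Rgs12, Rgs16 and Rgs17 were followed in mouse cells on their way from pluripotency to smooth muscle. Each was taken as the probe set whose Entrez Gene ID carries that symbol, which gave 8 probe sets, 1 per gene, of the 25206 on the array. The array holds 23 named genes of the RGS family, their binding proteins included. Expression was measured in 15 samples on Affymetrix Mouse Gene 2.0 ST arrays, in 5 groups of 3. The cultured groups came from 1 Acta2hrGFP line of induced pluripotent stem cells (iPSC), in which green fluorescent protein reports the smooth muscle actin gene Acta2. They were iPSC before differentiation (day 0), progenitors sorted as Kdr+ on the fifth day (Kdr, also called Flk-1, is a receptor of early vascular mesoderm), and GFP- and GFP+ fractions of the day 13 culture. The fifth group was Acta2hrGFP+ smooth muscle cells from the mouse aorta, which the labels call primary. The age of the animals, the number pooled and any time the aortic cells spent in culture are not given in the sources used here. The series calls the samples biological triplicates and does not describe the separate cultures or animals, so p-values measure the spread between these samples.

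RGS proteins switch G protein signals off. A receptor on the cell surface loads the alpha subunit of a G protein with GTP, and an RGS protein speeds the hydrolysis of that GTP, so that the signal ends sooner. In vascular smooth muscle the Gq and Gi classes carry the signals of vasoconstrictors, and Rgs2, Rgs4, Rgs5 and Rgs16 are small RGS proteins that act on these classes. Rgs5 is widely used as a marker of pericytes and arterial smooth muscle, and mice without Rgs2 have raised blood pressure.

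Rgs2, Rgs4, Rgs5 and Rgs16 carried the widest changes and all lie on chromosome 1, so their promoters are shown first, as the 250 bases before the annotated start on the gene's own strand. The sequences are RefSeq's on GRCm38.p6. They cover chr1:144004150-144004399 for Rgs2 (minus strand), chr1:169747643-169747892 for Rgs4 (minus strand), chr1:169655251-169655500 for Rgs5 (plus strand) and chr1:153740103-153740352 for Rgs16 (plus strand). Capitals mark a TATAAA match, and of these 4 windows the Rgs4 one holds it.
Rgs2: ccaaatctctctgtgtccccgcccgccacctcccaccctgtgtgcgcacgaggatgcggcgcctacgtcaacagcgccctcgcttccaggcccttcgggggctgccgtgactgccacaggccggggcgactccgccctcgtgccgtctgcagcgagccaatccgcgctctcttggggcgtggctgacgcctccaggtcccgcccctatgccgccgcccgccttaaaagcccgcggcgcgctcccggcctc
Rgs4: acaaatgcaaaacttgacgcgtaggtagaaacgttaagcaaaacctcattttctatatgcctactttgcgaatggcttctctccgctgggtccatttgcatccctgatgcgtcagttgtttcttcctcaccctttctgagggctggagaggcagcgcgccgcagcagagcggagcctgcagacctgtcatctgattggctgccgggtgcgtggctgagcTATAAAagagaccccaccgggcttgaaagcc
Rgs5: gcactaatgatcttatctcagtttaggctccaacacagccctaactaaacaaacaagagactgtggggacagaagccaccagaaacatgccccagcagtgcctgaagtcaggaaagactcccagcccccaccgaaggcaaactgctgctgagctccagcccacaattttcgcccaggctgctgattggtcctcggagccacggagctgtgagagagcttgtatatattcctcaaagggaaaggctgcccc
Rgs16: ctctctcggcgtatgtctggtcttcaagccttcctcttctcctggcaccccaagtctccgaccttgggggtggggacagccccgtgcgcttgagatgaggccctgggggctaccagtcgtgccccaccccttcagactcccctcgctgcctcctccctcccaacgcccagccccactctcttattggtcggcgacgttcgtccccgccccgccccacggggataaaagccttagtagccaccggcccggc
The TATAAA of Rgs4 begins 31 bases before the start, and 12.4% of the 32851 promoter windows of that length hold this motif on either strand. Both Rgs3 windows, not printed here, also hold TATAAA, at 100 and 177 bases before the start. The windows of the other members do not. Rgs2 and Rgs16 are rich in G and C, at 72.4% and 66.4%, where Rgs4 and Rgs5 are both at 53.6% and the median window is at 52.4%. All 8 genes were matched, with 10 windows in all, since Rgs3 and Rgs12 have 2 each. None of the 10 holds the CArG box, the element bound by serum response factor, which 1.47% of all windows hold. None holds the cyclic AMP response element TGACGTCA either (1.55% of all windows). TGANTCA, the AP-1 element, is in 1 Rgs12 window and in the Rgs17 window (6.75% of all windows). CANNTG, the E box, is in the Rgs4 window 4 times, in 1 Rgs3 window and in 1 Rgs12 window, against 66.2% of all windows, and no E box of Rgs4 overlaps its TATAAA. Motifs were searched on both strands, and a match or its absence describes these letters only. Rgs4 and Rgs5 are direct neighbours on chromosome 1, between Nuf2 and Ccdc190. Rgs2 lies between Uchl5 and Rgs13.

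Values are log2 expression, made by robust multi-array averaging (RMA). A log2 difference of 1 is a 2-fold difference, and levels of different genes are not compared with each other, because probes differ in brightness. A difference was called when its limma p-value, adjusted by Benjamini and Hochberg over all 25206 probe sets, was under 0.05. No detection calls accompany the values, so a low level cannot be told from no expression. In bulk samples, fewer cells of a type and less RNA per cell cannot be told apart. The sorts were checked first. Kdr was at 3.24 at day 0 and 9.64 at day 5. Acta2 was at 10.67 ± 0.450 in day 13 GFP- cells and 11.32 ± 0.130 in GFP+ cells (SD, n = 3). That difference of 0.65 was not called by limma without pairing the samples (adjusted p = 0.151). Myh11, a myosin of mature smooth muscle, was at 4.64 in day 13 GFP+ cells and 11.03 in aortic cells. Both day 13 samples numbered 3 stood apart from the others of their group, with array weights of 0.266 and 0.439, against at least 1.34 for the other day 13 samples. The aortic samples also had low weights, of 0.569, 0.478 and 0.469. For some results that rest on the day 13 samples numbered 3, the value without them is given too.

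**Figure D1:**
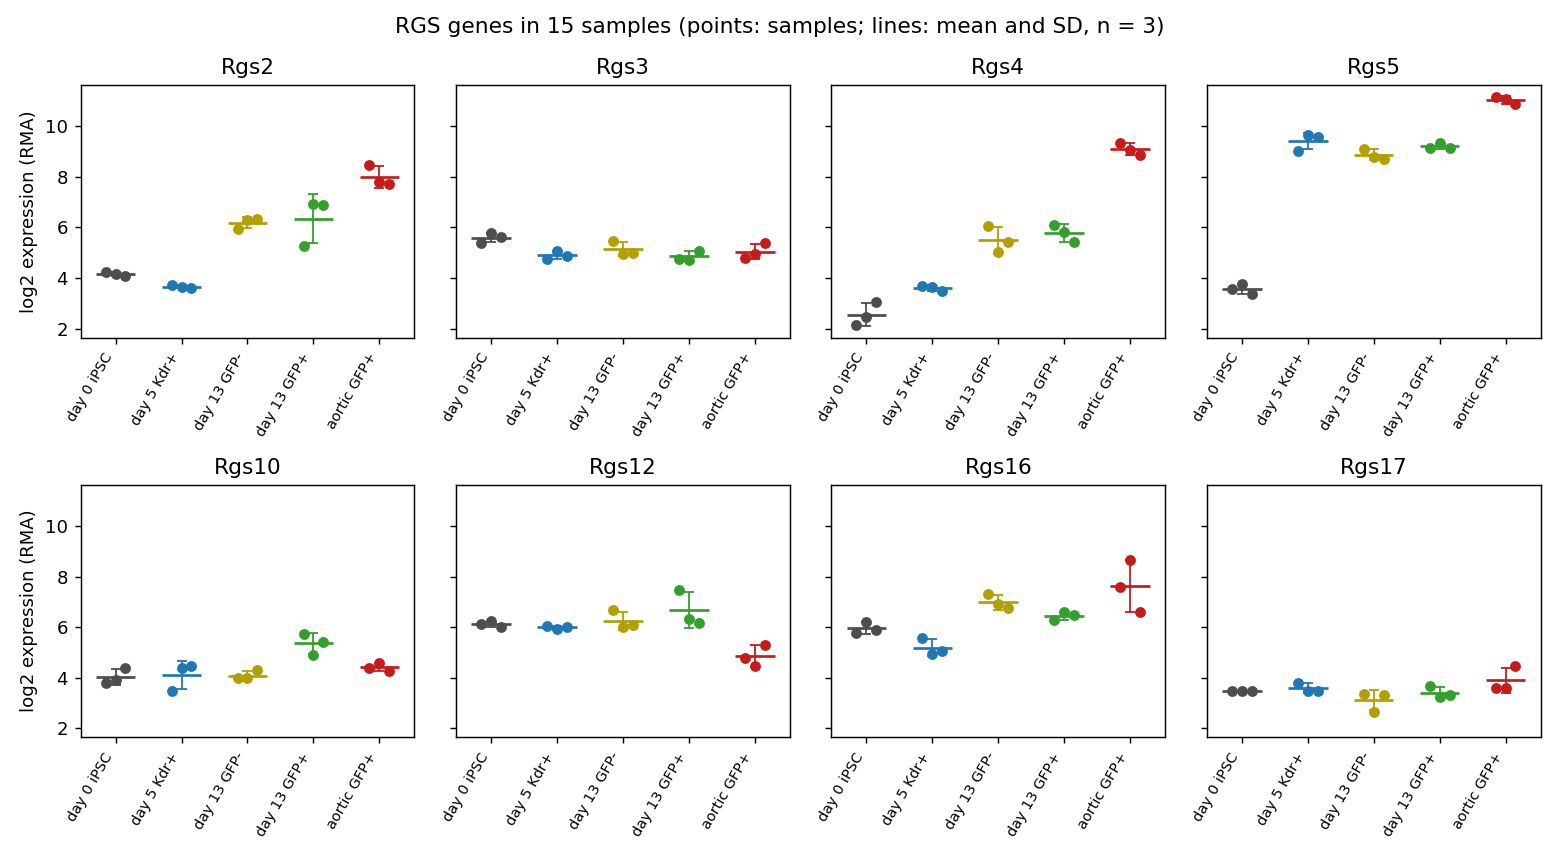
Log2 expression of the 8 RGS genes, 1 panel each, with the 5 groups on the horizontal axis. Points are samples and lines the mean and SD of 3. Rgs5 stands between 3.35 and 3.74 at day 0 and at 8.72 or more in every other sample, and the aortic samples of Rgs2, Rgs4 and Rgs5 lie above all others.

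Rgs5, which acts on Gi and Gq alpha subunits, was low in iPSC and high from day 5 on. Its log2 level was 3.54, 3.74 and 3.35 in the 3 day 0 samples and 9.04, 9.66 and 9.56 in the day 5 samples. It was 9.12, 8.79 and 8.72 in day 13 GFP- cells, 9.15, 9.34 and 9.15 in GFP+ cells, and 11.15, 11.10 and 10.88 in aortic cells. The day 0 samples lay far below all others and the aortic samples above all others. From day 0 to day 5 Rgs5 rose by 5.87 (SE 0.169, 95% interval 5.51 to 6.23), which is 58.6-fold (adjusted p = 1.41e-12). The range of its group means, 7.50, was at percentile 100 of all probe sets after rounding. Aortic cells were above day 13 GFP+ cells by 1.83 (SE 0.169, 3.55-fold, adjusted p = 3.61e-07) and above GFP- cells by 2.16 (4.48-fold, adjusted p = 4.31e-08).

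Between day 5 and day 13 Rgs5 moved little. In GFP- cells it fell by 0.54 (SE 0.169, adjusted p = 0.0254), with overlapping samples. That call was lost without day 5 replicate 5 (adjusted p = 0.133) or 6 (0.105), without GFP- replicate 5 (0.0852) or 6 (0.108), under cyclic loess (0.0685) and in a fit of only those groups (0.0762). In GFP+ cells it stood at -0.21 against day 5 (adjusted p = 0.454). All 3 GFP+ samples were above all 3 GFP- samples, by 0.34 on average (95% interval -0.02 to 0.69, adjusted p = 0.389). In order of level, day 0 was below GFP- by 5.33 and day 5 below aortic by 1.62, both past the threshold, while GFP-, GFP+ and day 5 did not pass as neighbours.

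Rgs4, a small RGS protein of Gi and Gq signalling, climbed at each stage. It was at 2.15, 2.44 and 3.04 at day 0, at 3.67, 3.66 and 3.48 at day 5, and at 6.07, 5.01 and 5.41 in day 13 GFP- cells. It was at 6.11, 5.81 and 5.43 in GFP+ cells and at 9.35, 9.06 and 8.87 in aortic cells. No sample of day 0, day 5, day 13 or the aorta overlapped with another of these stages, while both day 13 sorts overlapped. The rise from day 0 to day 5 was 1.06 (SE 0.262, 2.08-fold, adjusted p = 0.00553). From day 5 it rose in GFP- cells by 1.89 (3.72-fold, adjusted p = 4.47e-05) and in GFP+ cells by 2.18 (4.53-fold, adjusted p = 6.78e-06).

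The widest step of Rgs4 lay between culture and aorta. Aortic cells were above day 13 GFP+ cells by 3.31 (SE 0.262, 95% interval 2.76 to 3.87), which is 9.94-fold (adjusted p = 6.02e-08). They were above GFP- cells by 3.60 (95% interval 3.04 to 4.16), which is 12.1-fold (adjusted p = 1.89e-08). These comparisons share the aortic samples, as those with day 5 share the day 5 samples. The sorts differed by 0.29 (95% interval -0.27 to 0.84, adjusted p = 0.754), so a difference of up to 0.84 lies inside the interval. The range of the group means was 6.55, at percentile 99.8 of all probe sets.

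Rgs2, which prefers Gq alpha subunits, rose by day 13 and was highest in the aorta. Its levels were 4.24, 4.16 and 4.07 at day 0 and 3.73, 3.62 and 3.62 at day 5. They were 5.94, 6.28 and 6.34 in day 13 GFP- cells, 5.25, 6.93 and 6.89 in GFP+ cells, and 8.49, 7.79 and 7.70 in aortic cells. The day 5 samples were all below the day 0 samples, but that difference of -0.50 was not called (adjusted p = 0.324). Rgs2 rose from day 5 by 2.53 in GFP- cells (SE 0.333, 5.77-fold, adjusted p = 2.87e-05) and by 2.70 in GFP+ cells (6.49-fold, adjusted p = 9.01e-06). Aortic cells exceeded GFP+ cells by 1.64 (SE 0.333, 3.12-fold, adjusted p = 0.000988) and GFP- cells by 1.81 (3.5-fold, adjusted p = 0.000367). GFP+ replicate 3, at 5.25, lay apart from the other GFP+ samples, and without it the aortic excess over GFP+ cells was 1.09 (adjusted p = 0.000529). The sorts differed by 0.17 (95% interval -0.54 to 0.88, adjusted p = 0.929), and by 0.60 (adjusted p = 0.16) without both samples numbered 3.

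Rgs16, also a small RGS protein of Gi and Gq signalling, was lowest at day 5 and rose to day 13. It was at 5.79, 6.22 and 5.90 at day 0, at 5.56, 4.95 and 5.07 at day 5, and at 7.31, 6.90 and 6.74 in GFP- cells. It was at 6.28, 6.60 and 6.48 in GFP+ cells and at 7.61, 8.67 and 6.62 in aortic cells. The day 5 samples were the lowest, and the aortic samples were spread widely. The lowest aortic sample, 6.62, was below all GFP- samples and just above the highest GFP+ sample, 6.60, so the aortic samples overlapped with GFP- but not with GFP+ cells. From day 5, Rgs16 rose by 1.79 in GFP- cells (SE 0.353, 3.46-fold, adjusted p = 0.00108) and by 1.26 in GFP+ cells (2.4-fold, adjusted p = 0.0111). The difference from day 0 to day 5, -0.78, was not called (adjusted p = 0.124), although the samples did not overlap. With array weights it passed, at -0.90 (adjusted p = 0.00574).

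The aortic calls of Rgs16 depended on which sample was left out. Aortic cells were above GFP+ cells by 1.18 (SE 0.353, 2.26-fold, adjusted p = 0.0153), and without aortic replicate 2 by 0.66 (adjusted p = 0.074). A fit of only those groups also lost the call (adjusted p = 0.07). Against GFP- cells the difference was 0.65 (adjusted p = 0.157), and it passed without aortic replicate 3, at 1.15 (adjusted p = 0.00397), and with array weights, at 0.82 (adjusted p = 0.0416). GFP+ samples were all below GFP- samples, with a difference of -0.53 (95% interval -1.28 to 0.22, adjusted p = 0.59). Replicate 3 was the highest GFP- sample, at 7.31, and the lowest GFP+ sample, at 6.28. No pair of neighbours in the order day 5, day 0, GFP+, GFP-, aortic passed for Rgs16.

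Rgs3, the remaining small RGS gene by its core domain, which also has longer forms, was highest in iPSC and changed least. It was at 5.40, 5.77 and 5.63 at day 0 and at 4.77, 5.06 and 4.85 at day 5. It fell by 0.71 (SE 0.178, 1.63-fold, adjusted p = 0.00619), with no overlap between the samples. At day 13 it lay between 4.71 and 5.46 and in the aorta between 4.79 and 5.37, and no later comparison was called. Its group means spanned 0.75, at percentile 50.4 of all probe sets.

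Rgs10, a short protein that is little more than an RGS domain, which acts on Gi alpha subunits and is best known from leukocytes and microglia, was the 1 member called between the day 13 sorts. Its levels were 5.74, 4.91 and 5.43 in GFP+ cells and 4.0, 3.97 and 4.29 in GFP- cells, without overlap. GFP+ cells were above GFP- cells by 1.27 (SE 0.255, 95% interval 0.73 to 1.82), which is 2.42-fold (adjusted p = 0.00832). Without both samples numbered 3 the difference was 1.04 and was not called (adjusted p = 0.0857). Elsewhere Rgs10 was lower. It was at 3.77, 3.91 and 4.38 at day 0, at 3.48, 4.38 and 4.48 at day 5, and at 4.38, 4.59 and 4.27 in aortic cells. It rose from day 5 to GFP+ cells by 1.24 (2.37-fold, adjusted p = 0.00108), against -0.03 to GFP- cells (adjusted p = 0.966).

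Aortic cells were lower than GFP+ cells in Rgs10, with a log2 difference of -0.95 (a fold of 1.93, adjusted p = 0.00799), a call that array weights lost (adjusted p = 0.0606). GFP+ was the highest of the 5 groups, and the order of the other 4 was not resolved. Leukocyte markers are given beside this gene. The mean level of that list per sample ranged from 3.59 to 3.72 in GFP- cells and from 3.61 to 3.78 in GFP+ cells, and limma called 0 of its 9 measured markers between the sorts, also 0 at an unadjusted p under 0.05. In aortic cells the list ranged from 4.63 to 5.16, and in day 0 iPSC from 4.67 to 4.68. Between the sorts 4.53% of all probe sets were called. Of 10 endoderm and epithelial markers, all 10 were lower in GFP+ than in GFP- cells, with list means from 4.61 to 4.90 against 6.52 to 6.67. Their part in the Rgs10 result was not tested.

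Rgs12, a large protein that joins its RGS domain to other interaction domains, was the member with its lowest level in the aorta. Its levels were 6.14, 6.25 and 6.01 at day 0 and 6.03, 5.94 and 6.02 at day 5. They were 6.67, 6.00 and 6.11 in GFP- cells, 7.49, 6.33 and 6.18 in GFP+ cells, and 4.79, 4.47 and 5.31 in aortic cells. Every aortic sample was below every cultured sample. Against GFP+ cells the aortic log2 difference was -1.81 (SE 0.286, a fold of 3.5, adjusted p = 0.000105), and against GFP- cells it was -1.40 (a fold of 2.64, adjusted p = 0.000905). Both samples numbered 3 were the highest of their day 13 groups. Without both, the aortic difference was -1.40 against GFP+ cells (adjusted p = 4.42e-05) and -1.20 against GFP- cells (adjusted p = 0.000154). All 3 GFP+ samples were above day 5, by 0.67 (adjusted p = 0.098). That difference passed under cyclic loess (adjusted p = 0.0364) and without GFP+ replicate 6 (adjusted p = 0.0327), and was 0.26 without both samples numbered 3.

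Rgs17, which acts on the Gz and Gi classes, differed little between groups, and no neighbours in its order of levels passed. Its samples ranged from 2.65 to 3.80 in culture and were 3.61, 3.61 and 4.48 in the aorta. The same value, 3.46, occurred in 4 samples of day 0 and day 5. Rgs10 also had the same value, 4.38, in 3 samples, and Rgs5 had 9.15 in 2 GFP+ samples. Of all probe sets, 25.6% had any value shared between samples. Aortic cells were above GFP- cells by 0.79 (SE 0.231, 1.73-fold, adjusted p = 0.0122). That call was lost without aortic replicate 3 (adjusted p = 0.068), without GFP- replicate 5 (0.0735), under cyclic loess (0.0552) and in a fit of only those groups (0.0679).

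**Figure D2:**
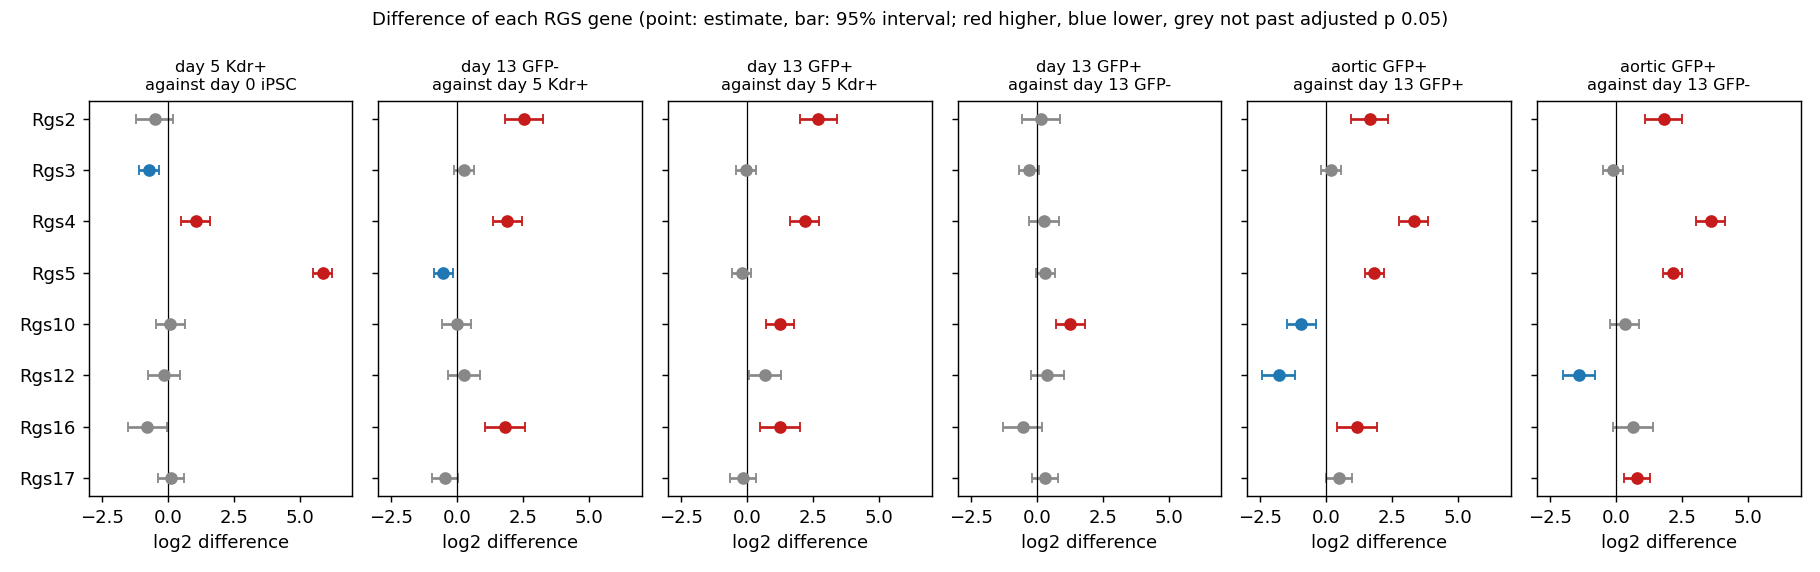
Log2 difference of each RGS gene in the 6 comparisons, with its 95% interval; red is higher, blue is lower and grey did not pass an adjusted p of 0.05. The sorts panel shows 1 red point, Rgs10 at 1.27, and the aortic panels show Rgs2, Rgs4 and Rgs5 to the right and Rgs12 to the left.

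The 8 genes were then counted together, with the share of all 25206 probe sets called in the same comparison beside each count. From day 0 to day 5, 2 rose and 1 fell, against 28.8% of all probe sets called, 14.9% higher and 13.9% lower. The samples of 5 members did not overlap, as for 46% of all. From day 5 to GFP- cells 3 rose and 1 fell, against 26% of all (12% higher, 13.9% lower), and 4 members did not overlap (39.6% of all). Rgs2, Rgs4 and Rgs16 were the members that rose there, and Rgs5 fell. From day 5 to GFP+ cells 4 rose, the same 3 and Rgs10, against 31.2% of all called (14.3% higher, 16.9% lower). In that comparison limma called 0 members lower, and the 5 members at an unadjusted p under 0.05 were all higher. The samples of 5 did not overlap (45.3% of all).

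Between the sorts 1 member rose, Rgs10, against 4.53% of all probe sets called (2.02% higher, 2.52% lower). The samples of 3 members did not overlap, as for 19.5% of all. Aortic cells had 4 members higher and 2 lower than GFP+ cells, against 37.2% of all (17.7% higher, 19.5% lower), with 6 not overlapping (44.9% of all). The higher ones were Rgs2, Rgs4, Rgs5 and Rgs16, and the lower ones Rgs10 and Rgs12. Against GFP- cells, 4 were higher and 1 lower, against 41.9% of all (20.2% higher, 21.7% lower), with 5 not overlapping (47% of all). Here Rgs17 took the place of Rgs16, and Rgs12 was the lower one.

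The median log2 difference over the 8 members was -0.02 from day 0 to day 5, beside -0.01 over all probe sets. It was 0.25 beside -0.03 for GFP- cells and 0.96 beside 0.00 for GFP+ cells, both against day 5. Between the sorts it was 0.29 beside 0.01. It was 0.83 beside 0.07 for aortic against GFP+ cells, and 0.72 beside 0.09 for aortic against GFP- cells. The highest group mean was aortic for 5 members, day 13 GFP+ for 2 (Rgs10 and Rgs12) and day 0 for 1 (Rgs3). Of 32 steps between neighbouring group means, 9 passed the threshold.

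Across the 15 samples some members ran in parallel. Pearson's r was 0.903 for Rgs2 and Rgs4, 0.837 for Rgs2 and Rgs16, 0.774 for Rgs4 and Rgs16, and 0.768 for the neighbours Rgs4 and Rgs5. The samples form 5 groups of 3, so these values describe mostly the group means. Among 20356 named probe sets, those most like Rgs4 were Rhob, a small GTPase (r = 0.994), Cst3, a secreted protease inhibitor (0.988), and Pbxip1 (0.987). Those most like Rgs2 were Fzd8, a Wnt receptor (0.985), Neo1, a netrin receptor (0.978), and Erg, a transcription factor of endothelial cells (0.976). Those most like Rgs5 were Dzip1l (0.991), Tgfb1i1, a focal adhesion protein (0.986), and Pcdh7, a protocadherin (0.984). For Pcdh7 the rank correlation with Rgs5 was only 0.584.

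For Rgs16 the most alike were Relb, a subunit of NF-kappa B (r = 0.929), Cd274, the immune checkpoint ligand (0.927), and Cabcoco1 (0.922). Rgs12 ran most like Wdr19, a protein of ciliary transport (0.960), Gys1, the muscle glycogen synthase (0.945), and Fbxw9 (0.936). For Rgs10 no probe set came as close, and the most alike were Col16a1, a collagen (0.836), Rassf5 (0.828) and Plcxd1 (0.824). Rgs3 and Rgs17, whose group means span less than 1, were not compared in this way.

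Of the other 15 RGS family genes, 2 rose and 4 fell from day 0 to day 5, 2 rose and 2 fell from there to GFP- cells, and 1 rose and 2 fell to GFP+ cells. These are 40%, 26.7% and 20% of them, beside 28.8%, 26% and 31.2% of all probe sets called. Rgs19, a Gi regulator, rose from 6.44 to 7.77 (adjusted p = 1.02e-05), while Rgs1 fell from 3.32 to 1.98 (adjusted p = 0.000284). Rgs9 rose from 4.32 at day 5 to 5.38 in GFP+ cells (adjusted p = 0.000105). Between the sorts 1 of the 15 was called, where 4.53% of all probe sets were. It was Rgs8, the neighbour of Rgs16, at 4.81 in GFP- and 4.12 in GFP+ cells (adjusted p = 0.0191).

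In aortic cells 5 of these 15 were higher and 2 lower than in GFP+ cells (46.7% called, beside 37.2% of all probe sets). Rgs7bp, which anchors RGS proteins of the Rgs7 type at the membrane, was at 8.77, 8.40 and 8.37 in the aorta and at 2.37, 3.16 and 3.62 in GFP+ cells. The difference of 5.46 (SE 0.239) is 44.2-fold (adjusted p = 7.19e-11). Of its known partners, Rgs6 was higher by 1.85 (3.61-fold, adjusted p = 2.84e-08) and Rgs7 by 1.25 (2.37-fold, adjusted p = 1.24e-05). The others of that type did not rise with them. Rgs9 was at 4.52 in the aorta and 5.38 in GFP+ cells, and Rgs11 at 4.51 and 4.48. Rgs1, a leukocyte RGS gene, was higher by 1.69 (adjusted p = 2.49e-05). Rgs13, Rgs18 and Rgs21, which lie beside Rgs2 on chromosome 1, lay between 1.36 and 2.24 in every sample.

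**Figure D3:**
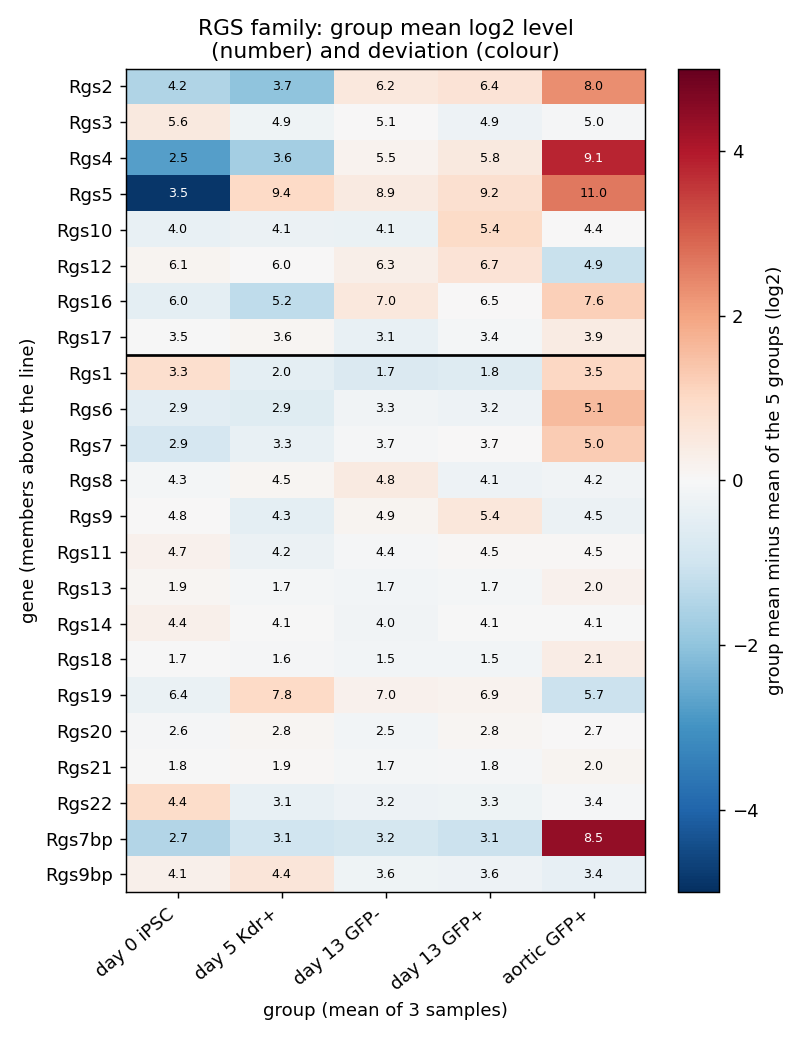
Group mean log2 level of 23 RGS family genes, with the 8 members above the line; the number is the mean of 3 samples and the colour its deviation from the mean of the 5 groups. The strongest colours are Rgs5 at day 0, at 3.5, and Rgs7bp in the aorta, at 8.5.

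The G proteins that RGS proteins act on were read from lists. From day 0 to day 5, 7 of 13 alpha subunits rose and 2 fell (69.2% called, beside 28.8% of all probe sets). Gna14, of the Gq class, rose from 3.87 to 5.91 (adjusted p = 1.75e-05), and Gnai2, of the Gi class, from 8.02 to 9.0 (adjusted p = 9.31e-05). By day 13 Gna14 had fallen again, to 3.96 in GFP- cells (adjusted p = 3.47e-05) and 3.92 in GFP+ cells (adjusted p = 1.74e-05), and in each sort 4 of 13 alpha subunits fell. Limma called 0 of them higher there, and the 4 were also those at an unadjusted p under 0.05. The 30.8% of alpha subunits called lay near the 26% (GFP-) and 31.2% (GFP+) of all probe sets. Aortic cells had 5 alpha subunits higher and 2 lower than GFP+ cells (53.8% called, beside 37.2% of all probe sets). Gnao1 was higher by 2.23 (4.68-fold, adjusted p = 4.15e-07) and Gnai1 by 2.07 (4.19-fold, adjusted p = 3.35e-08), both substrates of RGS proteins.

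Of 14 measured beta and gamma subunits, 7 were higher and 3 lower in aortic than in GFP+ cells, and 6 rose and 1 fell from day 5 to GFP+ cells. These are 71.4% and 50% called, beside 37.2% and 31.2% of all probe sets. Gnb5, the beta subunit that pairs with RGS proteins of the Rgs7 type, rose from 4.0 at day 5 to 6.05 in GFP+ cells (adjusted p = 2.12e-07). It was lower in aortic cells, at 4.99 (adjusted p = 0.000176). Gnb4 rose by 2.23 from day 0 to day 5 (adjusted p = 9.45e-07).

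Among 20 effectors, the enzymes and channels that G proteins drive, 9 were higher and 2 lower in aortic than in GFP+ cells. That is 55% called, beside 37.2% of all probe sets. Adcy5, an adenylyl cyclase that Gi inhibits, was at 9.33 against 3.71, a difference of 5.63 (49.5-fold, adjusted p = 2.63e-11). The Gq effectors Plcb4 and Plcb1, both phospholipases C, were higher by 3.61 (12.2-fold, adjusted p = 5.84e-11) and 3.26 (9.55-fold, adjusted p = 7.68e-11). In culture Adcy6, another adenylyl cyclase, rose from 3.81 at day 0 to 5.38 at day 5 (adjusted p = 3.55e-06) and to 7.38 in GFP+ cells (adjusted p = 2.13e-07). Between the sorts 1 effector was higher and 1 lower in GFP+ cells, Adcy2 by 1.06 (adjusted p = 0.00144) and Kcnj5, a channel opened by G beta and gamma, by -1.54 (adjusted p = 0.000201). That is 10% of the effectors called, beside 4.53% of all probe sets.

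Of 36 measured genes on the list of Gq and Gi coupled receptors, 9 rose and 1 fell from day 0 to day 5. The share called, 27.8%, lay near the 28.8% of all probe sets. That list also holds Apln, the ligand of Aplnr, and Ackr3, an atypical receptor, which was among the 9. Cxcr4, a chemokine receptor, rose by 4.52 (23-fold, adjusted p = 3.13e-08) and Aplnr, the apelin receptor of early mesoderm, by 3.36 (10.3-fold, adjusted p = 5.81e-10). Both were lower again at day 13, Cxcr4 with a difference of -3.69 in GFP+ cells (adjusted p = 2.57e-07), while S1pr3, a sphingosine phosphate receptor, rose by 3.08 (8.47-fold, adjusted p = 3.59e-08). In aortic cells 12 genes of this list were higher and 9 lower than in GFP+ cells (58.3% called, beside 37.2% of all probe sets). The neuropeptide Y receptor Npy1r was higher by 5.62 (49.1-fold, adjusted p = 5.96e-14) and the serotonin receptor Htr1b by 4.28 (19.5-fold, adjusted p = 1.55e-09), while P2ry1, a receptor for ADP, was lower, at -2.86 (adjusted p = 7.63e-06). Of 12 measured receptor kinases, arrestins and GPSM regulators, 4 were higher and 1 lower in the aorta, with Grk5, a receptor kinase, higher by 2.71 (6.53-fold, adjusted p = 4.67e-09). The share of this list called, 41.7%, lay near the 37.2% of all probe sets. Between the sorts limma called 0 of 13 alpha subunits and 0 of 14 beta and gamma subunits, each with 2 at an unadjusted p under 0.05. Of the receptor list it called 2 genes in each direction, 11.1% of the list, beside 4.53% of all probe sets.

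**Figure D4:**
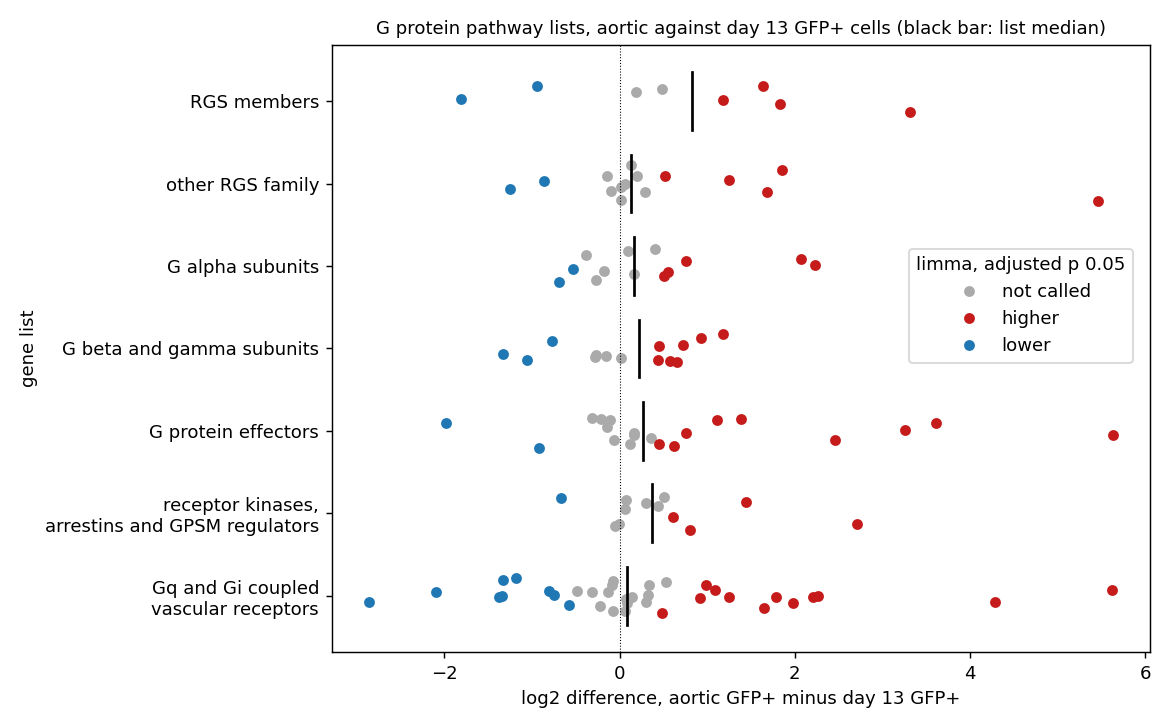
Log2 difference between aortic and day 13 GFP+ cells for the RGS members and the 6 lists of their pathway, 1 point per gene and a black bar at each list's median. The members' median is 0.83, and that of the other RGS family genes is 0.13. The members were chosen with earlier results of these data known, so their median does not describe RGS genes at large. The points farthest to the right are Adcy5 at 5.63, Npy1r at 5.62 and Rgs7bp at 5.46.

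Other cell types and states moved with the aortic comparison and are given as ranges of each list's mean log2 level per sample. Smooth muscle markers stood at 9.95 to 10.11 in the aorta and 6.48 to 6.84 in GFP+ cells, and pericyte and mural markers, a list without Rgs5, at 7.74 to 8.03 against 5.84 to 6.09. Of the 10 pericyte markers 8 were higher and 1 lower. In this comparison 37.2% of all probe sets were called, 17.7% higher and 19.5% lower. Endothelial markers stood at 5.15 to 5.70 against 4.34 to 4.46, with 6 of 10 higher and 1 lower, and Pecam1, a defining endothelial gene, was at 7.99 against 4.24. Leukocyte markers stood at 4.63 to 5.16 against 3.61 to 3.78, with 7 of 9 higher and 0 lower. In day 0 iPSC that list stood at 4.67 to 4.68. Ptprc, the common leukocyte antigen, was at 3.56 in aortic and 1.84 in GFP+ cells. Fibroblast markers stood at 8.30 to 9.01 against 6.67 to 7.69, with 4 of 10 higher, 2 lower and 4 not called. Cardiac markers stood at 4.25 to 4.36 against 4.97 to 5.74, with 1 of 10 higher and 4 lower. The lowest value in the whole table was 0.663, so no marker was at 0.

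Immediate early genes, which rise within minutes of stimulation or tissue dissociation, had their lowest list means at day 5 and their highest in the aorta, where Rgs2 and Rgs16 also had their lowest and highest group means. The list mean was 6.69 to 7.06 at day 0, 4.85 to 5.19 at day 5, 6.35 to 6.44 in GFP- cells, 6.43 to 7.0 in GFP+ cells and 9.78 to 10.01 in the aorta. From day 5, limma called 12 of the 16 list genes higher in GFP- and 16 in GFP+ cells, beside 26% and 31.2% of all probe sets called. Rgs2 and Rgs16 rose at the same steps. Day 0 was placed differently. At day 0 the list overlapped with GFP+ and lay above GFP- cells, while Rgs2 (4.16) and Rgs16 (5.97) had lower group means than in either sort. All 16 immediate early genes were higher in aortic than in GFP+ cells, and 15 of 16 fell from day 0 to day 5. The shares of all probe sets called there were 37.2% and 28.8%. Proliferation markers ran the other way, from 9.11 to 9.22 at day 0 to 4.27 to 4.55 in the aorta. The part of these lists in the RGS differences was not tested.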

How the data were processed

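Affymetrix Mouse Gene 2.0 ST arrays were run on total RNA of 15 samples. The authors deposited 1 log2 expression value per probe set and sample. Per the submitters' processing notes the tools were RMA, the affy package (version 1.36.1) and R (version 2.15.1). That the scale is log2 follows from the range of the values. The build behind the probe sets was not given in the sources used here. RMA includes quantile normalization, and the sample medians lay between 4.08 and 4.29. The number of arrays limits the precision of every value.

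Groups came from the labels. Of 25206 probe sets, 23185 were named through Entrez Gene IDs, 2021 were not, and none was left out. The model, fitted with limma (version 3.58.1; R version 4.3.3), had 5 group means for the 15 samples, with 10 residual and 5.09 prior degrees of freedom, without a replicate block, for 6 comparisons, with Benjamini and Hochberg adjustment within each and a threshold of 0.05. The other 4 pairs of groups served only the order of levels. The fit was tested on simulated data. Errors are SE of the difference unless SD is named, and intervals are 95%.

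The 8 members and all lists were chosen with earlier results of these data known. Named were all members, Kdr and Acta2, up to 3 genes with the largest called change per pathway list and comparison, and the 3 probe sets most like each member whose group means span 1 or more, without clone or predicted-gene names. Rgs7, Rgs11, Rgs13, Rgs18, Rgs21, Myh11, Pecam1 and Ptprc were added outside that rule, after their values were seen. Of 244 listed genes, 233 had a probe set and 11 are not analysed here.

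Deviations from group means of same-numbered day 13 samples correlated at 0.597, 0.403 and 0.397, each over 0.1, the bar set for treating the numbers as pairs. Differently numbered samples 5 and 6 also correlated, at 0.278 and 0.345, so replicate 5 and 6 are less clearly told apart than replicate 3. Between other cultured stages they lay between -0.014 and 0.068. The pairing comes from this check, and the labels give only the numbers. Since the labels state no pairing, the main fit has no block, and the sort results come from that unpaired fit unless a block is named. For Acta2 only the unpaired result is given. Alternatives were array weights, trended and robust moderation, median centring, repeated quantile normalization, cyclic loess, a filter on low levels, treat with a log2 change of 1, a fit of only the groups compared, the replicate block, and each sample left out in turn.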

Additional observations from a re-analysis of the deposited data

Results flagged for a closer look

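The change of Rgs10 from day 5 to day 13 differed between the sorted fractions. It was 1.24 in GFP+ cells and -0.03 in GFP- cells, and the difference of 1.27 (SE 0.255, adjusted p = 0.00832 in limma) is the same contrast as GFP+ against GFP- cells, since the day 5 samples are shared. All 3 GFP+ samples were above all 3 GFP- samples.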

How the results depend on the processing

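Median centring, repeated quantile normalization, trended and robust moderation and the filter on low levels, which left 7 members to test, changed no call of a member. Median centring moved the median of all probe sets to -0.13 (GFP- against day 5) and -0.11 (GFP+ against day 5). A fit of only the groups compared called 5 members from day 0 to day 5, with Rgs2 and Rgs16 added. Treat with a log2 change of 1 called 1 member from day 0 to day 5, 1 for GFP- and 2 for GFP+ cells against day 5, 0 between the sorts (0 also at an unadjusted p under 0.05), and 2 in each aortic comparison. Array weights called 2 between the sorts, with Rgs5 at 0.48 added (adjusted p = 0.0312). They also added Rgs16 from day 0 to day 5 and in aortic against GFP- cells, and lost Rgs10 in aortic against GFP+ cells. Without both day 13 samples numbered 3, an alternative chosen after seeing the data, limma called 0 between the sorts, with 3 at an unadjusted p under 0.05. The replicate block on the 6 day 13 samples, also chosen after seeing the data, kept Rgs10 at 1.27 (adjusted p = 0.00366) and changed no other call between the sorts. With the block on all 12 cultured samples, where the numbers do not pair the earlier stages, 4, 5, 5 and 1 members were called in the first 4 comparisons. For the aortic comparisons no paired analysis was possible because they share 1 replicate number with the cultured groups.

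Differences near 0, none of them called, turned their sign. Rgs10 in GFP- cells against day 5 was 0.014 without both samples numbered 3. Rgs3 in GFP+ cells against day 5 was 0.021 under cyclic loess and 0.0025 without those samples, and Rgs5 was 0.011 under cyclic loess. Rgs3 in aortic against GFP- cells was 0.011 with array weights, 0.025 after repeated quantile normalization and 0.061 without those samples. The cause was not tested. With 1 sample left out in turn, the number of members called ranged from 3 to 3 from day 0 to day 5, from 3 to 4 for GFP- cells and 4 to 5 for GFP+ cells against day 5, from 1 to 1 between the sorts, from 5 to 6 for aortic against GFP+ cells and from 4 to 5 against GFP- cells. Rgs10 then ranged from -0.090 to 0.41 and Rgs17 from -0.0058 to 0.17 from day 0 to day 5, Rgs10 from -0.35 to 0.15 for GFP- cells and Rgs3 from -0.15 to 0.045 for GFP+ cells against day 5. Between the sorts Rgs2 ranged from -0.12 to 0.72 and Rgs12 from -0.0019 to 0.65, and Rgs3 from -0.27 to 0.061 in aortic against GFP- cells.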
